A study of Mus musculus with 18 samples.

Results

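The genes described here encode the factors that start, elongate and end translation. They were chosen by symbol: all genes of the count table whose symbol begins with Eif1 to Eif6, Eef1 or Eef2, together with Pabpc1, Pabpc4, Larp1, Etf1 and Gspt1. Kinases of eIF2, methyltransferases of the elongation factors, Eif4enif1 and pseudogenes were left out. The rule found 64 of the 51467 genes in the table, and it used no measured value. Of the 64, 60 passed the filter of 3 CPM (counts scaled to library size) in at least 3 libraries and were tested among 12851 genes. The other 4 were Eef1a2, Eif4e1b and Eif4e3, with totals of 4, 56 and 42 counts over all 18 libraries, and Eif2c5, a long intergenic noncoding RNA whose symbol fits the rule, with 0 counts.

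The libraries came from mouse embryonic stem cells (ESCs) of a wild type (WT) line and a Dgcr8 knockout (Dgcr8 KO) line, grown in medium with serum, LIF and the MEK and GSK3 inhibitors of 2i culture. DGCR8 is needed to make canonical microRNAs (miRNAs). After 100 ug/ml cycloheximide for 2 minutes, the lysate of each of 3 samples per genotype was run on a 10 to 50% sucrose gradient, and monosome, low polysome (2 to 4 ribosomes) and high polysome (4 or more ribosomes) fractions were sequenced from the 3′ ends of polyadenylated RNA. The study's methods give 1 cell line per genotype, V6.5 for WT, so genotype and line cannot be told apart, and nothing states that the 3 samples are more than repeats of 1 line. Library totals were 1151649 to 4984833 counts. Spearman's rho between libraries was 0.969 to 0.987 within groups and 0.89 to 0.913 between the genotypes in a fraction, and no library stood apart. Dgcr8 itself kept 47.3 to 52 CPM in KO monosomes against 68.4 to 79.6 in WT. In low polysomes it had 39 to 58.6 against 51.8 to 70, and in high polysomes 8.73 to 23 against 26.1 to 29.6. In the limma fit described below it was lower in each, with log2 changes of -0.56, -0.45 and -1.01 (adjusted p = 0.0185, 0.0223 and 0.000276). Reads at 3′ ends do not test a deletion elsewhere in a gene. All 12 ESC markers examined were tested, with summed levels of 4216 to 6968 CPM in WT and 4528 to 6082 in KO libraries. The 7 fibroblast feeder markers, of which 2 were tested, summed to 7.01 to 12.7 CPM in WT, with Postn and Dcn at 0, and to 2.33 to 22.1 in KO libraries. The 6 primitive endoderm markers, of which 1 was tested, summed to at most 8.61 CPM, and the 5 neuroectoderm markers, of which 3 were tested, to 56.9 to 136 CPM in WT and 24.5 to 54.9 in KO libraries. The part of these markers in the results was not tested.

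Initiation begins when eIF1, eIF1A, eIF3, eIF5 and the eIF2 complex with initiator tRNA bind the small ribosomal subunit. The eIF4F complex, made of the cap binder eIF4E, the scaffold eIF4G and the helicase eIF4A, brings this subunit to the 5′ end of a message, and 4E-BPs block it by holding eIF4E. eEF1 and eEF2 drive elongation, and eRF1 and eRF3 (Etf1 and Gspt1) end it. Many messages for elongation factors, some for eIF3 subunits and that for the poly(A) binding protein PABPC1 begin with a 5′ terminal oligopyrimidine (TOP) motif, a C at the cap followed by C or U, through which mTOR, 4E-BPs and LARP1 control their ribosome load.

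In a fraction, each level is a count relative to all tested genes of that library, in CPM scaled with TMM factors, so the total amount of RNA in a fraction was not measured, and fewer cells with a message and less of it per cell cannot be told apart. The translation level is the high polysome to monosome ratio. Changes are given on the log2 scale ± the standard error (SE) of the limma fit, from 3 libraries per group, and p-values were adjusted over all tested genes (Benjamini-Hochberg). A gene was called changed at an adjusted p under 0.05, and the share of all tested genes called is given for comparison. The 60 members had a median of 473 counts per library against 70.2 for all tested genes, and deeper counts give more calls at a given size of change. Of the 60 members, 36 changed in translation level between Dgcr8 KO and WT cells, 20 upward and 16 downward, against 28.2% of all tested genes (13% upward and 15.2% downward). Over 2-fold, 12 were higher and 10 lower, against 15.1% of all genes (6.29% and 8.81%). The median change was 0.20 for the members and 0.01 for all genes, on the log2 scale. When libraries were scaled by total counts alone, which moved the median of all genes by -0.33, 13 members rose and 19 fell.

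Comparing the genotypes within fractions, members were more often lower than higher in Dgcr8 KO cells. In monosomes 40 changed, against 37.3% of all genes. Of these 36 fell and 4 rose, against 19.9% and 17.5% of all genes, and the median change was -0.47 for the members and -0.05 for all genes. In low polysomes 37 changed (52.3% of all genes), of which 29 fell and 8 rose, against 26.2% and 26.1%. In high polysomes 37 changed (60.7% of all genes), of which 30 fell and 7 rose, against 31.6% and 29.1%, with medians of -0.35 and -0.08. Over 2-fold, 19 fell and 2 rose in monosomes, against 18.1% of all genes (9.63% and 8.43%), 7 fell and 1 rose in low polysomes, against 25% (13.6% and 11.4%), and 14 fell and 2 rose in high polysomes, against 33.1% (17.9% and 15.1%). With total counts, which moved the median of all genes there by -0.22, 38 members fell and 3 rose in high polysomes. The counts of members that rose depended on single gradients: 2 rose in monosomes without WT replicate 1, 4 in low polysomes without WT replicate 2 or without KO replicate 1, and 4 in high polysomes without WT replicate 2 or without KO replicate 3. Together the 64 members held 3.62 to 3.97% of all reads in WT monosomes and 1.88 to 2.05% in KO monosomes. In high polysomes they held 1.8 to 1.85% in WT and 1.34 to 1.4% in KO cells. The groups did not overlap in either fraction.

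**Figure D1:**
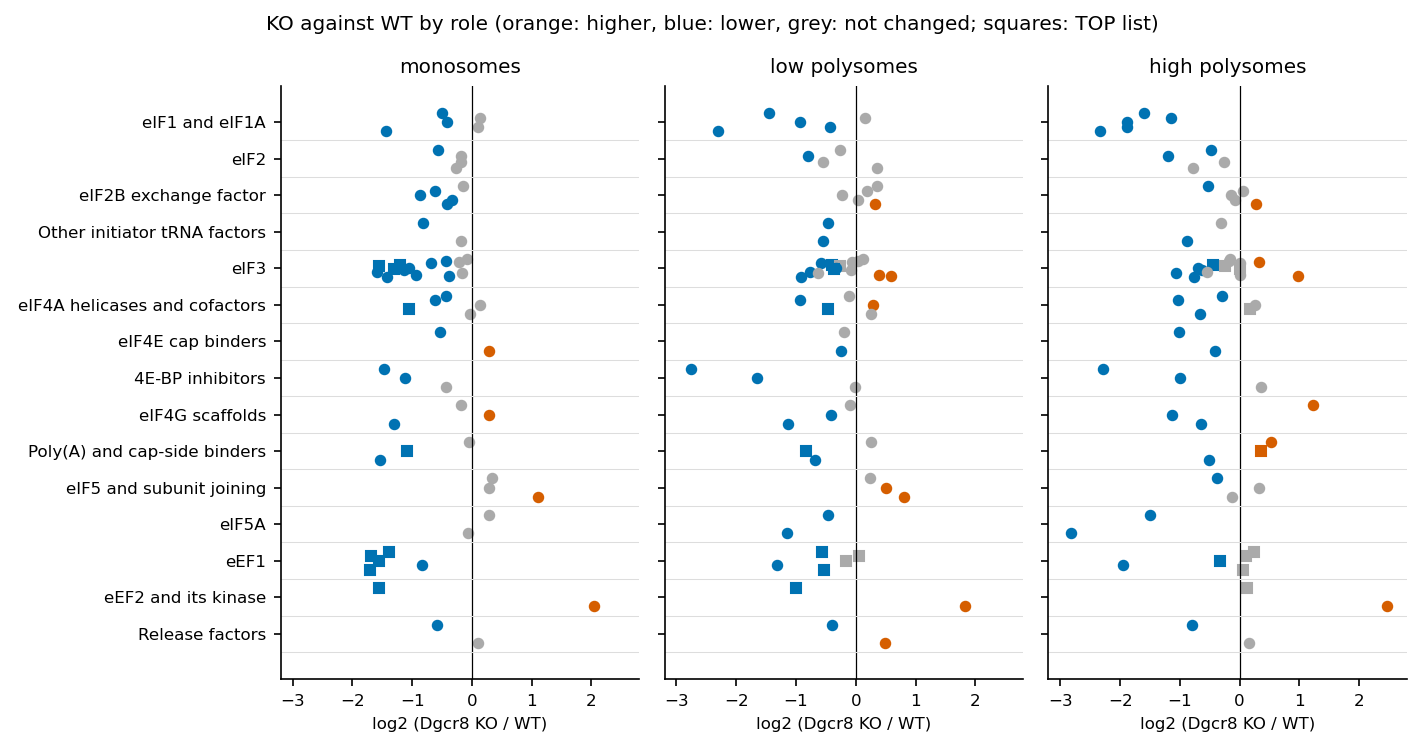
The log2 change of Dgcr8 KO against WT (x axis) for the 60 tested members in monosomes, low polysomes and high polysomes, in rows by role, with 1 point per gene and squares for the 10 genes of the TOP list. In monosomes the squares lie between -1.70 and -1.06, and in high polysomes between -0.45 and 0.35, whereas the 5 eIF1 and eIF1A genes lie between -2.33 and -1.15 in high polysomes.

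Within WT cells, 45 members differed between high polysomes and monosomes, against 54.0% of all genes. Of these 26 were higher and 19 lower in high polysomes, against 26% and 28.0%, and 24 differed over 2-fold, 11 higher and 13 lower, against 30.1% (10.7% and 19.3%). Within Dgcr8 KO cells 47 differed (67.7% of all genes), 27 higher and 20 lower, against 32.2% and 35.5%, of which 13 and 11 over 2-fold, against 43.0% (17.5% and 25.5%), and with total counts, which moved the median of all genes by -0.25, 21 were higher and 24 lower. These comparisons share the monosome and high polysome libraries with those above, so the counts are not independent of them.

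A list of 10 members known as TOP messages was examined next: Eef1a1, Eef1b2, Eef1d, Eef1g, Eef2, Eif3e, Eif3f, Eif3h, Eif4b and Pabpc1. In WT cells, 8 of the 10 were lower in high polysomes than in monosomes, all 8 by more than 2-fold, against 19.3% of all genes lower by over 2-fold, and the median ratio of the 10 was -2.10 on the log2 scale, against 0.51 for the other 50 members and -0.01 for all genes. In Dgcr8 KO cells the median ratio was -0.64. All 10 rose in translation level, 9 of them over 2-fold, by 0.76 to 1.79 on the log2 scale with a median of 1.38, against 13% of all genes that rose and 6.29% over 2-fold, and of the other 50 members 10 rose and 16 fell, with a median of 0.04. Without WT replicate 2, 5 of these 50 rose and 16 fell, and with total counts 4 rose and 19 fell. The smallest of the 10 changes, that of Eif3e, was 0.56 (adjusted p = 0.0699) without WT replicate 3, and it was 0.43 (adjusted p = 0.117) with total counts. In each of the other settings run, all 10 were called. Of the other 50 members, 5 were lower by over 2-fold in high polysomes than in monosomes of WT cells. Among them Pabpc4, at -2.25, rose in translation level, whereas Eif1, Eif4a2, Eif4ebp1 and Eif4ebp2 did not. The other 50 members were not shown to lack the TOP motif. The list was put together with earlier results of these data known, so its counts are a description.

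The change lay mostly in monosomes. All 10 fell there by more than 2-fold, between -1.06 and -1.70, against 9.63% of all genes that fell by more than 2-fold. In low polysomes 7 of the 10 fell, against 26.2% of all genes, with a median of -0.43 over the 10, and the calls of 3 of the 7 rested on single gradients: that of Eef1a1 was -0.34 (adjusted p = 0.0906) without WT replicate 3, that of Eif3h -0.23 (adjusted p = 0.112) without KO replicate 2, and that of Eif3e -0.37 to -0.32, with adjusted p of 0.0709 to 0.106, without WT replicate 1, WT replicate 3, KO replicate 1 or KO replicate 2 and -0.37 (adjusted p = 0.0759) without a filter. In high polysomes 1 rose, 2 fell and 7 were not called, with a median of 0.08, against 29.1% and 31.6% of all genes that rose and fell. The rise, that of Pabpc1, was 0.35, and it was 0.19 (adjusted p = 0.223) without KO replicate 3, 0.32 (adjusted p = 0.0789) without WT replicate 1 and 0.28 (adjusted p = 0.128) without WT replicate 2. It was also not called with total counts, at 0.13 (adjusted p = 0.394), or without a filter, at 0.38 (adjusted p = 0.0567). The falls were those of Eif3e and Eef1d, and the second, -0.33, was not called without WT replicate 1, WT replicate 2 or KO replicate 3 (-0.26, -0.33 and -0.29, with adjusted p of 0.143, 0.0696 and 0.0863). Among the 7 not called, Eif3f was called lower with total counts, at -0.47 (adjusted p = 0.00067), and in further settings given below. Eif4b was called higher without KO replicate 2, at 0.38 (adjusted p = 0.00527). Of all reads, the 10 genes took 2.45 to 2.78% in WT monosomes and 0.99 to 1.15% in KO monosomes, but 0.489 to 0.548% and 0.467 to 0.5% in high polysomes, where the groups overlapped.

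The starts of these messages are shown because the TOP motif names the list. The longest run of C or T that opens with a C within the first 100 bases of the representative GENCODE M21 transcript had 8 or more bases in 7 of the 10 genes, in 17 of the other 50 tested members (34%) and in 23.4% of 11763 tested protein-coding genes. Below, 26 bases around that run are given for 5 of the genes on GRCm38, with the run in capitals. An annotated start need not be the capped base in these cells, and the run is a description, not a mapped motif.
Pabpc1 (chr15:36608948-36608973, - strand): CCCCTTCTCCCCggcggttagtgctg
Eif3f (chr7:108934417-108934442, + strand): CTCTTTCTCggcaagatggcttctcc
Eif3h (chr15:51865466-51865491, - strand): tcacgCTTCTCTTTCTTCCTgtctgg
Eef2 (chr10:81176637-81176662, + strand): gtcagcggtCTCTTCCgccgcagccg
Eef1a1 (chr9:78481655-78481680, - strand): ttggacgttCTTTTTCgcaacgggtt
The run opened the annotated transcript in Pabpc1 and Eif3f and lay further in for the other 3. In Eef2 and Eef1a1 it had 7 bases, under the limit of 8. Long runs near the start also occurred off the list, with 14 bases from base 3 in Eif3c and 10 from base 4 in Eif3k.

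**Figure D2:**
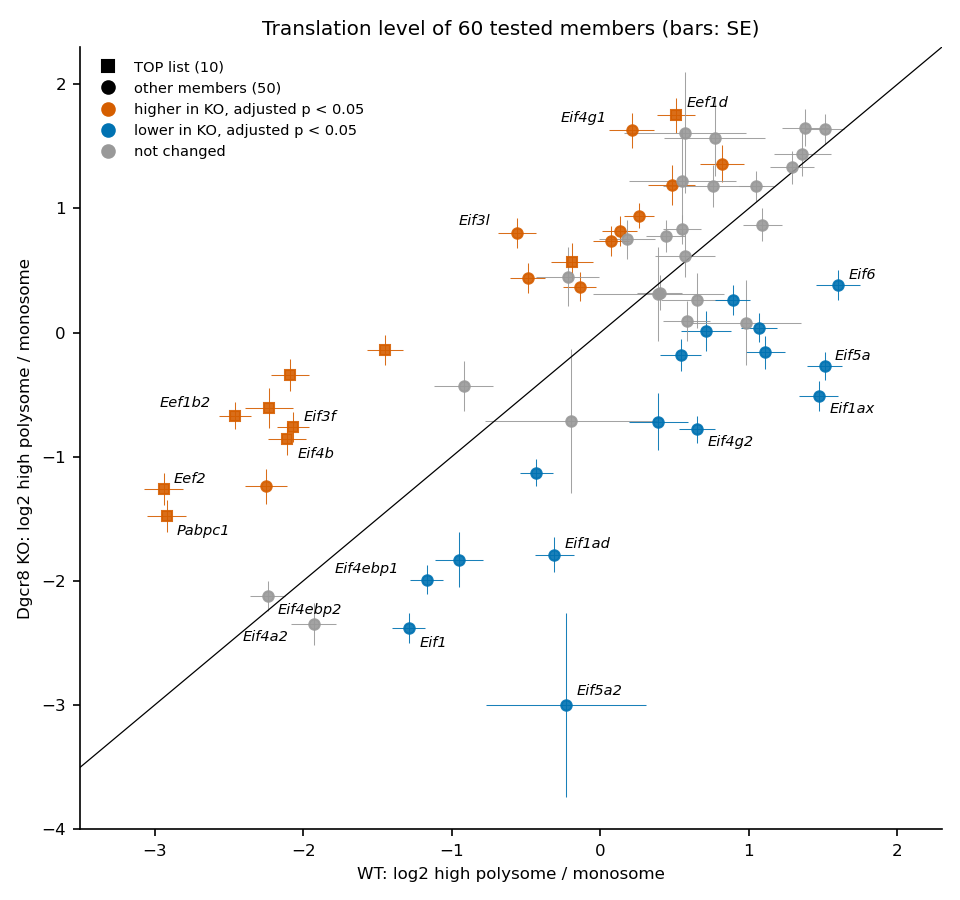
The log2 ratio of high polysome to monosome in WT (x axis) and in Dgcr8 KO cells (y axis) for the 60 tested members, with standard errors as bars, the line of equal ratios in black, and squares for the TOP list. The 10 squares lie above the line, and 8 of them have WT ratios between -2.94 and -1.45.

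eIF1 and eIF1A keep the scanning ribosome open until it finds the start codon. Their 4 genes and Eif1ad, counted with them by its symbol, all fell in translation level and in high polysomes, against 15.2% and 31.6% of all genes. Eif1ax (ENSMUSG00000067194, chrX:159372178-159389928, + strand) had 261, 275 and 275 CPM in the high polysomes of the 3 WT gradients and 71.7, 79.5 and 69.9 in those of the KO gradients, whereas in monosomes it had 97.1, 97.4 and 97.3 in WT against 119, 99 and 98.3 in KO libraries. The KO libraries were thus all lower in high polysomes and all higher in monosomes, and the change in translation level was -1.98 ± 0.18 (adjusted p = 9.82e-11). The monosome difference of 0.10 ± 0.13 (adjusted p = 0.594) was not called. Its relative Eif1a fell in translation level with a log2 change of -1.27 ± 0.19 (adjusted p = 1.36e-06) and its high polysome level with a log2 change of -1.15 ± 0.12 (adjusted p = 1.4e-10).

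Eif1 encodes the start codon selection factor itself. Its level in low polysomes was 572, 548 and 573 CPM in WT and 212, 217 and 188 in KO cells, and in high polysomes 195, 222 and 204 in WT against 65.1, 77.7 and 63.2 in KO libraries, with no overlap. It fell with a log2 change of -1.46 ± 0.11 (adjusted p = 7.75e-15) and -1.60 ± 0.12 (adjusted p = 1.04e-14) in these fractions, and in monosomes with a log2 change of -0.50 ± 0.11 (adjusted p = 0.000344). The close paralogue Eif1b fell in all 3 fractions, with log2 changes of -1.44, -2.31 and -2.33, and its translation level with a log2 change of -0.89 ± 0.27 (adjusted p = 0.0116), a call that was -0.78 (adjusted p = 0.0618) without WT replicate 1, -0.81 (adjusted p = 0.0521) without WT replicate 3 and -0.72 (adjusted p = 0.065) without KO replicate 2. Eif1ad, named for its eIF1A-like domain, fell in translation level with a log2 change of -1.48 ± 0.20 (adjusted p = 2.11e-07) and in high polysomes with a log2 change of -1.89 ± 0.14 (adjusted p = 1.28e-14).

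eIF5A, which helps the ribosome join difficult peptide bonds, has 2 genes here, and both fell in translation level. Eif5a (ENSMUSG00000078812, chr11:69916714-69921958, - strand) had 1389, 1364 and 1435 CPM in WT high polysomes and 528, 566 and 407 in KO high polysomes, against 500.3, 530.5 and 445 in WT against 652, 521 and 631 in KO libraries in monosomes. In high polysomes all KO libraries lay below the WT ones, and in monosomes the ranges overlapped. The translation level fell with a log2 change of -1.78 ± 0.16 (adjusted p = 1.4e-10), at percentile 2.52 of all tested genes, and the high polysome level with a log2 change of -1.50 ± 0.11 (adjusted p = 9.03e-15). The minor gene Eif5a2 held 3 to 18 counts per library in WT monosomes and high polysomes, 5 to 14 in KO monosomes and 0 to 5 in KO high polysomes. Its fitted change in translation level of -2.77 ± 0.91 (adjusted p = 0.0189) rests on these counts and was -2.17 (adjusted p = 0.113) without WT replicate 3 and -2.15 (adjusted p = 0.085) without KO replicate 2.

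These messages encode short proteins. Of the 11 tested members with fewer than 200 residues, 9 fell in translation level and none rose, with a median of -1.12, but 838 of all 1577 tested genes of this length also fell and 16 rose, with a median of -0.88. In high polysomes 10 of the 11 fell (median -1.88), as did 1091 of the 1577 (median -1.05). The 2 short members outside the fall in translation level were Eif4ebp2 (0.13) and Eif4ebp3 (0.80), neither of which was called. From 200 to under 500 residues, all 7 TOP genes rose, with a median of 1.32, while the other 22 members had a median of -0.15 and all 4975 genes of the class -0.21. With 500 or more residues, the 3 TOP genes had a median of 1.44, the other 17 members 0.50 and all 5216 genes 0.41. The part of length in the members' changes was not tested.

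**Figure D3:**
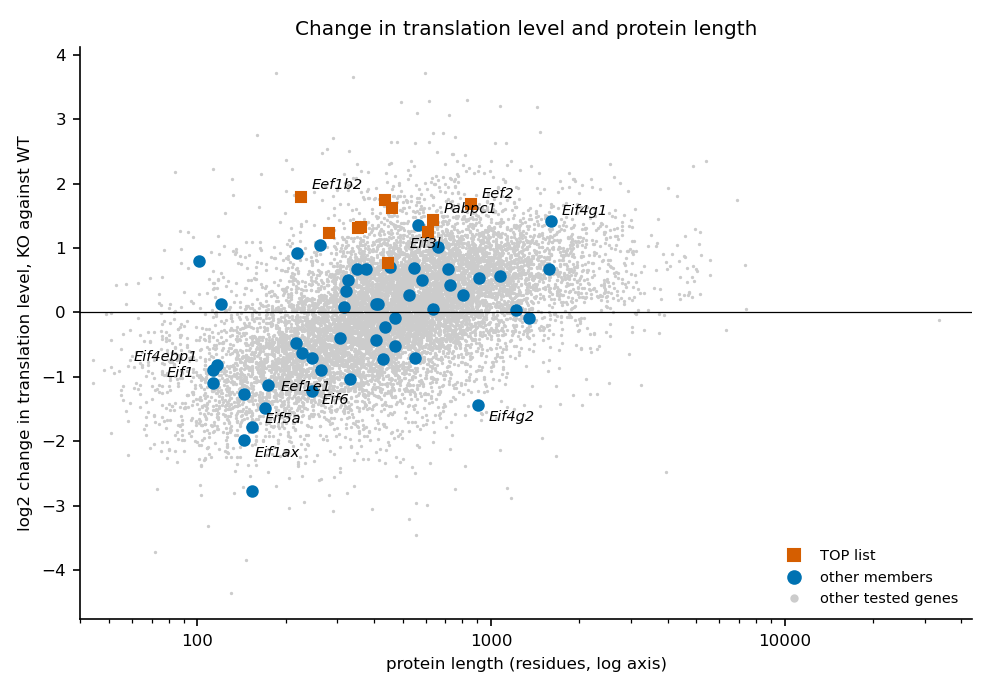
The log2 change in translation level between Dgcr8 KO and WT cells (y axis) against protein length in residues on a log axis, with grey points for tested genes, blue circles for members and orange squares for the TOP list. The members under 200 residues lie with the other short genes below 0 except for Eif4ebp2 and Eif4ebp3, and the orange squares lie between 0.76 and 1.79.

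eIF2 carries initiator tRNA, and eIF2B recharges it with GTP. Of the 4 eIF2 genes, 1 changed in translation level, against 28.2% of all genes. Eif2s2, the β subunit, had 666, 780.3 and 868 CPM in WT high polysomes and 270.1, 365 and 372 in KO high polysomes, and 337, 399 and 362 in WT against 336, 303 and 333 in KO libraries in monosomes, where the KO values were all below the lowest WT value but the difference of -0.18 ± 0.13 (adjusted p = 0.291) was not called. Its translation level fell with a log2 change of -1.03 ± 0.17 (adjusted p = 1.77e-05) and its high polysome level with a log2 change of -1.20 ± 0.12 (adjusted p = 2.24e-11). Eif2s1, the α subunit whose phosphorylation slows initiation, was more abundant in high polysomes than in monosomes, by 1.36 ± 0.19 (adjusted p = 7.15e-08) in WT and 1.44 ± 0.18 (adjusted p = 5.48e-09) in KO cells, and the difference of 0.08 ± 0.26 (adjusted p = 0.86) was not called. The γ subunit genes on the X and Y chromosomes, Eif2s3x and Eif2s3y, had 4 to 35 and 1 to 11 counts per library, and neither was called in any comparison. In low polysomes Eif2s3x had -0.55 (adjusted p = 0.149), and without WT replicate 1 it was called lower, at -0.81 (adjusted p = 0.0408).

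Of the 5 eIF2B genes, 3 rose in translation level and none fell, against 13% and 15.2% of all genes, with a range of -0.39 to 0.71 over the 5. They were Eif2b2, Eif2b3 and Eif2b5, which were named after their values were seen, and the last encodes the catalytic ε subunit. Only 1 of the 5 rose without WT replicate 2, and none with total counts. Eif2d and Eif2a, whose products can bring tRNA without eIF2, had values of -0.70 to 0.50, and 1 of the 2 was called lower, but neither without WT replicate 1, KO replicate 1 or KO replicate 2.

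eIF3 is the largest initiation complex and holds the small subunit, eIF4G and the message together. Of its 14 tested genes, 8 rose in translation level and none fell, against 13% and 15.2% of all genes, with a median of 0.68, and in monosomes 11 fell and none rose, against 19.9% and 17.5%, with a median of -0.99. The 8 became 5 without WT replicate 2 or without WT replicate 3, and 4 with total counts. Eif3f (ENSMUSG00000031029, chr7:108934417-108942951, + strand) had 889, 841 and 957 CPM in WT monosomes and 309.6, 282 and 315 in KO monosomes, and 226, 198 and 213 in WT against 186, 191 and 162 in KO libraries in high polysomes. The KO libraries were all lower in both fractions. The change was -1.56 in monosomes, and the one of -0.25 in high polysomes was not called (adjusted p = 0.0673). The latter was called at -0.47 (adjusted p = 0.00067) with total counts, -0.30 (adjusted p = 0.0257) with a filter of 10 CPM and -0.29 (adjusted p = 0.0386) without KO replicate 2. It was also called with a block on replicate number (adjusted p = 0.0486). The translation level of Eif3f rose by 1.32 ± 0.16 (adjusted p = 6.45e-08). Eif3h, with 885, 989 and 1003 CPM in WT monosomes and 394, 377 and 391 in KO monosomes, rose in translation level by 1.31 ± 0.17 (adjusted p = 1.6e-07), and 26.8% of the 50-base windows at its 3′ end also occur in 2 other genes, where unique alignment can lose reads.

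Eif3l was not on the TOP list and rose in high polysomes. It had 222, 201 and 198 CPM in WT high polysomes and 427, 379 and 411 in KO high polysomes, where no KO library overlapped a WT one. Its high polysome level rose by 0.97 ± 0.12 (adjusted p = 5.84e-09) and its translation level by 1.36 ± 0.18 (adjusted p = 1.6e-07). The scaffold subunits Eif3a and Eif3b were not called, with -0.08 ± 0.20 (adjusted p = 0.809) and 0.27 ± 0.22 (adjusted p = 0.387), and Eif3b was more abundant in high polysomes than in monosomes in both genotypes, by 1.38 ± 0.16 (adjusted p = 8.6e-10) in WT and 1.65 ± 0.15 (adjusted p = 1.63e-12) in KO cells. The other 8 eIF3 genes, Eif3c, Eif3d, Eif3g, Eif3i, Eif3j1, Eif3j2, Eif3k and Eif3m, are counted in the group. Of the windows at the 3′ ends, 85.8% are shared with Eif3j1 and another gene for Eif3j2 and 42.7% with a pseudogene for Eif3m. For Eif3e, which is on the TOP list, 24.5% are shared with 3 other genes.

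The gene of the eIF4F scaffold, Eif4g1, and its relative Eif4g2 moved in opposite directions. Eif4g1 (ENSMUSG00000045983, chr16:20668313-20692884, + strand) had 342, 297 and 241 CPM in WT high polysomes and 695, 529 and 857 in KO high polysomes, and 255, 254 and 240.5 in WT against 228, 203 and 231 in KO libraries in monosomes. All KO high polysome libraries exceeded all WT ones, with a fold of 2.35 and a log2 change of 1.23 ± 0.14 (adjusted p = 3.38e-10). Its translation level rose by 1.42 ± 0.20 (adjusted p = 9.37e-07), at percentile 96 of all tested genes. Eif4g2 (ENSMUSG00000005610, chr7:111067750-111083030, - strand), an eIF4G-like protein that lacks the binding site for eIF4E, had 434, 478 and 565 CPM in WT high polysomes and 199, 222 and 247 in KO high polysomes. Its translation level fell with a log2 change of -1.43 ± 0.16 (adjusted p = 1.37e-08), at percentile 5.92. With 906 residues, it was among 143 of 5216 tested genes with 500 or more residues that fell in translation level.

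Eif4g3 was rare, with 5 to 51 counts per library. It had 12.7, 14.2 and 14.8 CPM in WT low polysomes and 7.68, 5.77 and 5.52 in KO low polysomes, without overlap, and fell there with a log2 change of -1.14 ± 0.28 (adjusted p = 0.000713). It was also called lower in monosomes, with a log2 change of -1.31 ± 0.47 (adjusted p = 0.0268), but that value was -0.75 (adjusted p = 0.296) without WT replicate 2, -1.06 (adjusted p = 0.121) without KO replicate 2, -1.29 (adjusted p = 0.0744) without KO replicate 3 and -1.21 (adjusted p = 0.0612) without a filter.

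The helicase genes Eif4a1 and Eif4a2 had opposite loading in both genotypes. Eif4a1 was higher in high polysomes than in monosomes by 1.05 ± 0.12 (adjusted p = 2.71e-09) in WT and 1.18 ± 0.12 (adjusted p = 5.01e-11) in KO cells, and Eif4a2 was lower with a log2 change of -1.93 ± 0.15 (adjusted p = 8.5e-14) and -2.35 ± 0.17 (adjusted p = 1.25e-15). Neither difference between the genotypes was called with TMM scaling, at 0.13 and -0.42. With total counts that of Eif4a2 was called, at -0.75 (adjusted p = 0.0112). Eif4a2 fell in high polysomes with a log2 change of -1.03 ± 0.18 (adjusted p = 3.58e-06), from 44.5, 61.6 and 55.7 to 26.5, 24.9 and 27.1 CPM. It also fell in monosomes and low polysomes, with log2 changes of -0.61 ± 0.14 (adjusted p = 0.000776) and -0.93 ± 0.16 (adjusted p = 4.85e-06). Eif4a3, a helicase of the exon junction complex, was also higher in high polysomes, by 1.51 and 1.64, but 23.9% of its 3′ end windows occur in 3 other genes. Of the helicase cofactors, Eif4b rose in translation level by 1.25 ± 0.18 (adjusted p = 1.36e-06), with 1289, 1283 and 1365 CPM in WT monosomes against 639, 589 and 654 in KO monosomes. Eif4h is counted in the group.

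The cap binder gene Eif4e had 104, 98.7 and 101 CPM in WT high polysomes and 50.9, 48.8 and 50.3 in KO high polysomes. It fell there with a log2 change of -1.02 ± 0.15 (adjusted p = 1.32e-07), while its translation level was not called, at -0.48 ± 0.23 (adjusted p = 0.117). The latter was called lower without WT replicate 3, at -0.72 (adjusted p = 0.027), and with total counts, at -0.81 (adjusted p = 0.00602). In monosomes Eif4e fell with a log2 change of -0.54 ± 0.18 (adjusted p = 0.0153). That value was -0.30 (adjusted p = 0.227) without WT replicate 3 and was not called with total counts or without a filter. Eif4e2, whose protein binds caps without building eIF4F, fell in translation level with a log2 change of -0.70 ± 0.15 (adjusted p = 0.000499).

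Genes for 2 of the 3 inhibitors of eIF4E fell in every fraction of Dgcr8 KO cells. Eif4ebp1 (ENSMUSG00000031490, chr8:27260329-27276674, + strand) had 1047, 927 and 1016 CPM in WT monosomes, 1446, 1391 and 1552 in low and 465, 405 and 459 in high polysomes. In KO cells it had 332, 373 and 374 CPM in monosomes, 192, 243 and 221 in low polysomes and 92.6, 89.2 and 90.1 in high polysomes. No KO library reached a WT library of its fraction, and the changes were -1.47 ± 0.11 (adjusted p = 7.07e-14), -2.75 ± 0.11 (adjusted p = 5.12e-23) and -2.29 ± 0.12 (adjusted p = 1.53e-19), and its translation level fell with a log2 change of -0.82 ± 0.16 (adjusted p = 0.000132). Eif4ebp2 had 972, 809 and 945 CPM in WT low polysomes and 298, 249.6 and 319.7 in KO low polysomes. It fell with a log2 change of -1.12 ± 0.12 (adjusted p = 3e-10), -1.65 ± 0.12 (adjusted p = 2.39e-15) and -0.99 ± 0.12 (adjusted p = 7.02e-09) in the 3 fractions. Eif4ebp3, whose reads overlap another gene on its strand, was not called in any of them.

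Pabpc1 (ENSMUSG00000022283, chr15:36595661-36609668, - strand), the main poly(A) binding protein, had 6913, 7906 and 7709 CPM in WT monosomes and 3009, 3846 and 3785 in KO monosomes. In low polysomes it had 2032, 2021 and 2184 in WT against 968, 1140.0 and 1404 in KO libraries, and in high polysomes 957, 875 and 1163 in WT against 1018, 1261 and 1563 in KO libraries. KO libraries were all lower in monosomes and low polysomes, and in high polysomes the genotypes overlapped in part of their range. The changes in monosomes and low polysomes were -1.09 ± 0.13 (adjusted p = 4.05e-09) and -0.84 ± 0.13 (adjusted p = 6.66e-07), and the translation level rose by 1.44 ± 0.18 (adjusted p = 1.1e-07). Pabpc4 rose in translation level by 1.01 ± 0.20 (adjusted p = 0.000146), but its level fell in all 3 fractions. It had 1029, 1094 and 1039.7 CPM in WT monosomes and 324, 382 and 386 in KO monosomes. The log2 changes in monosomes, low and high polysomes were -1.54, -0.69 and -0.52 (adjusted p = 8.2e-12, 5.53e-05 and 0.00191). Of the windows at the 3′ end of Pabpc4, 69.8% occur in 3 other genes. Larp1, whose product binds TOP messages, rose in high polysomes by 0.53 ± 0.15 (adjusted p = 0.00323) but by 0.30 (adjusted p = 0.0868) with total counts, and its translation level was not called, at 0.57 ± 0.25 (adjusted p = 0.0876).

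Of the factors that act at subunit joining, Eif6, which keeps the large subunit from joining early, had 52.2, 70.3 and 46 CPM in WT monosomes and 122, 118 and 122 in KO monosomes, against 185, 161 and 167 in WT against 158, 161 and 152 in KO libraries in high polysomes. It rose in monosomes by 1.10 ± 0.15 (adjusted p = 3e-07) and in low polysomes by 0.80 ± 0.12 (adjusted p = 8.46e-07), and its translation level fell with a log2 change of -1.22 ± 0.19 (adjusted p = 6.04e-06). Eif5, the GTPase activator of eIF2, fell in translation level with a log2 change of -0.72 ± 0.19 (adjusted p = 0.00329). Eif5b, the joining GTPase, had a difference of 0.04 ± 0.27 (adjusted p = 0.928), which was not called.

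Among the elongation factors, the 4 eEF1 genes on the TOP list rose in translation level. Eef1b2 (ENSMUSG00000025967, chr1:63176825-63180486, + strand), a nucleotide exchange subunit, had 6396, 6551 and 7092 CPM in WT monosomes and 2056, 1881 and 2270.1 in KO monosomes, and 1297, 1224 and 1112 in WT against 1291, 1507 and 1123 in KO libraries in high polysomes. Its monosome level fell with a log2 change of -1.69 ± 0.11 (adjusted p = 7.74e-16), its high polysome level had 0.10 ± 0.11 (adjusted p = 0.447), and its translation level rose by 1.79 ± 0.15 (adjusted p = 3.64e-11). Eef1g rose by 1.75 ± 0.19 (adjusted p = 2.8e-09) and Eef1a1, the tRNA carrier, by 1.62 ± 0.22 (adjusted p = 4.1e-07). Eef1a1 had 1201, 1178 and 1581 CPM in WT monosomes and 407, 485 and 623 in KO monosomes, and 29.1% of the windows at its 3′ end occur in 13 other genes.

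Eef1d, the other exchange subunit, was not lower in high polysomes than in monosomes in WT cells, where its ratio was 0.51 ± 0.13 (adjusted p = 0.00114) with all gradients and 0.40 (adjusted p = 0.0534) without WT replicate 1. Its monosome level was 277, 281 and 324 CPM in WT and 97.3, 86.2 and 116 in KO cells, and its translation level rose by 1.23 ± 0.19 (adjusted p = 4.01e-06). Part of its exons overlaps Naprt on the same strand. Eef1e1, a short scaffold protein of the tRNA synthetase complex, fell in all 3 fractions, with log2 changes of -0.84, -1.31 and -1.96, and its translation level fell with a log2 change of -1.12 ± 0.30 (adjusted p = 0.00456).

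Eef2 (ENSMUSG00000034994, chr10:81176631-81182498, + strand), the translocase, had 6193, 6630.2 and 7119.7 CPM in WT monosomes and 2138, 2304 and 2326 in KO monosomes, and 963, 723 and 918 in WT against 960.1, 772 and 1119 in KO libraries in high polysomes, where the genotypes overlapped. It fell in monosomes with a log2 change of -1.56 ± 0.12 (adjusted p = 2.3e-13) and rose in translation level by 1.68 ± 0.18 (adjusted p = 2.62e-09). Eef2k (ENSMUSG00000035064, chr7:120842831-120907450, + strand), the kinase that inhibits eEF2, was higher in every KO library than in any WT library of its fraction. It had 8.04, 10.3 and 14.1 CPM in WT monosomes and 41.1, 42.7 and 46.2 in KO monosomes, 16.2, 14.2 and 16 in WT against 42.7, 62.8 and 62.5 in KO libraries in low polysomes, and 15.6, 12.3 and 28 in WT against 94.9, 89.8 and 113 in KO libraries in high polysomes. Folds were 4.1, 3.57 and 5.51, with log2 changes of 2.04 ± 0.33 (adjusted p = 3.4e-06), 1.83 ± 0.21 (adjusted p = 9.08e-10) and 2.46 ± 0.20 (adjusted p = 1.71e-13). Its translation level was not called, at 0.42 ± 0.38 (adjusted p = 0.445). No other member rose by more than 2-fold in more than 1 fraction.

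Neither release factor gene was called in translation level with TMM scaling. Etf1, which reads stop codons, had a difference in translation level of -0.22 ± 0.18 (adjusted p = 0.39), but of -0.55 (adjusted p = 0.0185) with total counts. It fell in monosomes, low and high polysomes, with log2 changes of -0.58 ± 0.14, -0.40 ± 0.12 and -0.80 ± 0.12 (adjusted p = 0.000727, 0.0051 and 1.95e-07). Its low polysome value was -0.29 (adjusted p = 0.0838) without WT replicate 3. Gspt1, its GTPase partner, had 0.05 ± 0.20 (adjusted p = 0.895) and was higher in high polysomes than in monosomes by 1.29 ± 0.15 (adjusted p = 1.34e-09) in WT and 1.33 ± 0.13 (adjusted p = 1.43e-11) in KO cells.

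**Figure D4:**
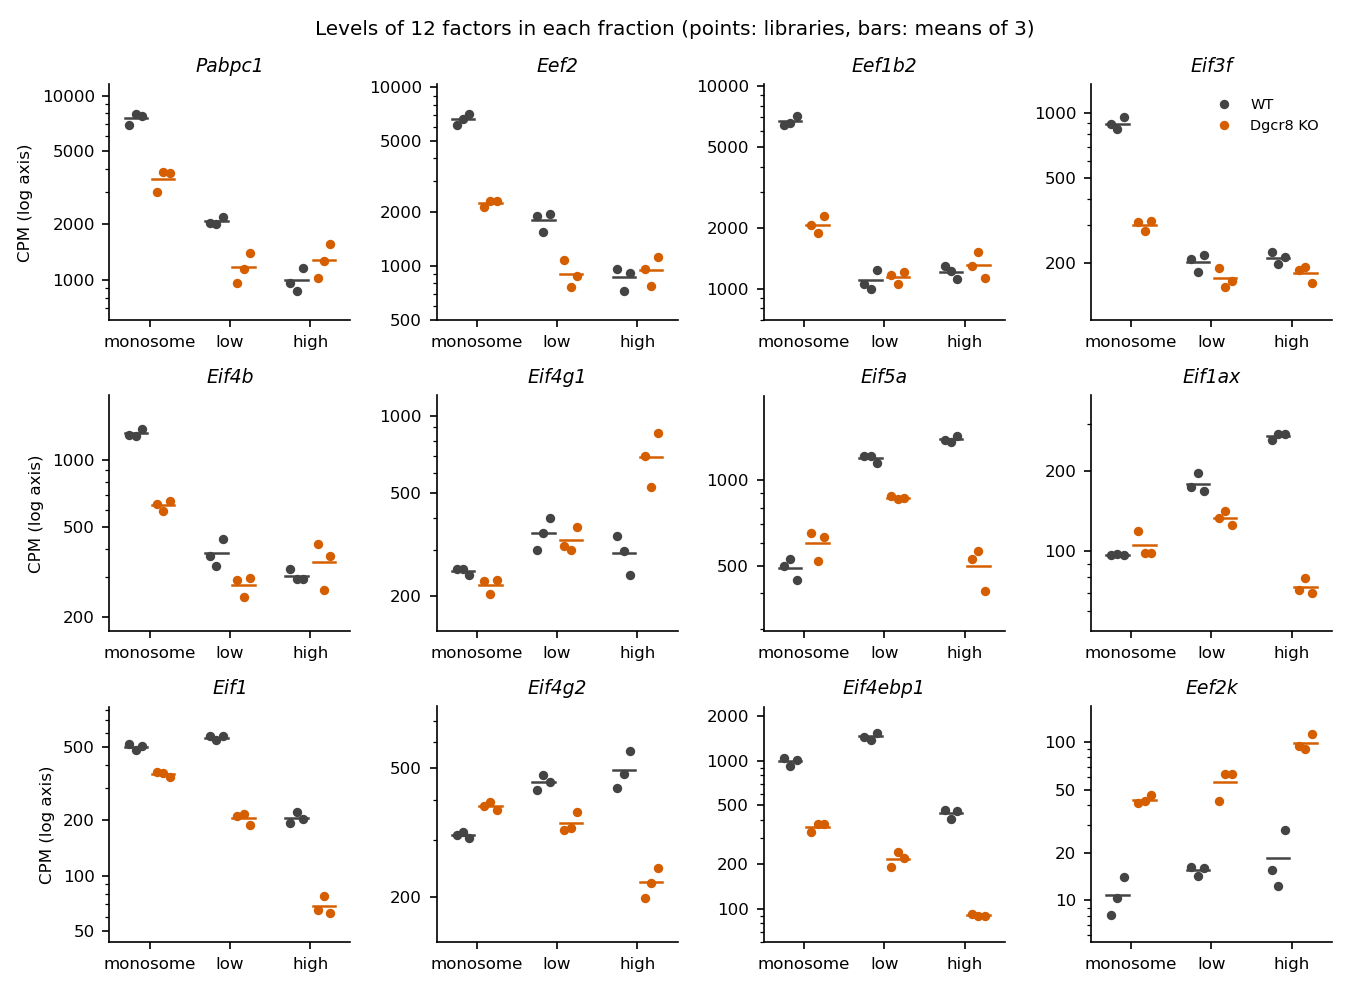
Levels in CPM on log axes for 12 members in monosomes, low and high polysomes, with 1 point per library, bars at the mean of 3, and WT in grey beside Dgcr8 KO in orange. The genotypes are apart in every fraction for Eif1, Eif1ax, Eif4g2, Eif4ebp1 and Eef2k, in monosomes and low polysomes for Pabpc1, Eef2 and Eif4b, in monosomes and high polysomes for Eif3f and Eif4g1, in low and high polysomes for Eif5a, and in monosomes for Eef1b2.

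Because KO cells lack canonical miRNAs, the members' 3′ untranslated regions (UTRs) were searched for the seed match of the main ESC miRNAs, which share one seed. The mature sequences from RefSeq (GRCm38.p6) are given with bases 2 to 8 in capitals.
mmu-miR-291a-3p (chr7:3218968-3218989, + strand): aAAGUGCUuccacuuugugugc
mmu-miR-294-3p (chr7:3220691-3220712, + strand): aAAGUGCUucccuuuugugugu
mmu-miR-295-3p (chr7:3220815-3220837, + strand): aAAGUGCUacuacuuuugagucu
mmu-miR-302b-3p (chr3:127545275-127545297, + strand): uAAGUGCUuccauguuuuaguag
mmu-miR-302d-3p (chr3:127545665-127545687, + strand): uAAGUGCUuccauguuugagugu
A site was AGCACTT or GCACTTA on the message strand, which overlap in AGCACTTA. Of the 60 tested members 10 held one (16.7%), as did 2170 of 11763 tested protein-coding genes (18.4%). These matches were not filtered for conservation, whereas the paper took conserved targets from TargetScan. In translation level 2 of the 10 rose and 3 fell, with a median of -0.23. Of the other 50, 18 rose and 13 fell, with a median of 0.27, against 13% and 15.2% of all genes. The median change of the 10 was -0.18 in monosomes and -0.54 in high polysomes, against -0.53 and -0.32 for the other 50. In high polysomes 1 of the 10 rose and 5 fell, as did 6 and 25 of the other 50. Of all genes, 29.1% rose and 31.6% fell there.

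Sites are shown for the member that rose in all fractions, Eef2k, for Eif4g2, and for the 3 tested members with the longer AGCACTTA match, each as 26 bases of GRCm38 with the match in capitals.
Eef2k (chr7:120906006-120906031, + strand): atctcagcacAGCACTTgggaggcta
Eif4g2 (chr7:111068450-111068475, - strand): agaggtttccAGCACTTgtctctctc
Eif2s2 (chr2:154871983-154872008, - strand): agacttcttAGCACTTAggaagcttc
Eif4b (chr15:102096082-102096107, + strand): ggatgaggaAGCACTTAacaggtagt
Eif4e (chr3:138557723-138557748, + strand): aataactacAGCACTTAcataataag
In high polysomes, Eif2s2 and Eif4e fell, with log2 changes of -1.20 and -1.02, Eif4b had 0.18 ± 0.13 (adjusted p = 0.23), Eif4g2 fell with a log2 change of -1.14 and Eef2k rose by 2.46. A match is a description and does not show binding.

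Some factors come as paralogues, and the ratio of their counts within a library does not depend on scaling. In 10 pairs and 3 fractions, 17 of 30 ratios did not overlap between the genotypes. A share for ratios of other genes was not computed. Levels of single genes did not overlap, with KO higher and lower, for 23.5% and 25.7% of all tested genes in monosomes. In low polysomes these shares were 28.6% and 28.4%, and in high polysomes 29.9% and 33.7%. With 3 libraries against 3 the smallest two-sided exact permutation p is 0.1, and the smallest adjusted p over the 30 was 0.176. No ratio could thus pass at an adjusted p under 0.05, and the ratios below are a description. The log2 ratio of Eif4g1 to Eif4g3 in high polysomes was 4.49 ± 0.43 in WT and 6.34 ± 0.50 in Dgcr8 KO cells (SD, n = 3). That of Eif4ebp1 to Eif4ebp2 was 0.54 ± 0.09 in WT and -0.76 ± 0.20 in Dgcr8 KO cells. For Eif1 to Eif1b in monosomes it was 1.95 ± 0.23 in WT and 2.87 ± 0.09 in Dgcr8 KO cells, and for Pabpc1 to Pabpc4 in high polysomes 2.16 ± 0.13 in WT and 3.03 ± 0.03 in Dgcr8 KO cells. In low polysomes the log2 ratio of Pabpc1 to Pabpc4 was 2.53 ± 0.30 in WT and 2.38 ± 0.33 in Dgcr8 KO cells, with overlap. For Eif1a to Eif1ax it was 0.05 ± 0.16 in WT and 0.07 ± 0.10 in Dgcr8 KO cells in monosomes, where the libraries overlapped, and -0.31 ± 0.08 in WT and 0.42 ± 0.10 in Dgcr8 KO cells in high polysomes.

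Other genes of the pathway, 46 kinases, phosphatases, modifying enzymes and partners of the factors, were counted beside the members. Of the 43 tested, 4 rose and 9 fell in translation level, against 13% and 15.2% of all genes, with a median of -0.13, and 5 rose and 9 fell in monosomes, against 17.5% and 19.9%, with a median of -0.07. With total counts 1 rose and 14 fell in translation level, and 2 rose in monosomes without WT replicate 2. Rack1, a ribosomal scaffold protein, rose in translation level by 1.14 ± 0.14 (adjusted p = 4.49e-08). The PABP inhibitors Paip2 and Paip2b fell with a log2 change of -1.45 ± 0.19 (adjusted p = 1.96e-07) and -2.35 ± 0.26 (adjusted p = 6.64e-09), and Denr, which acts in reinitiation, with a log2 change of -1.52 ± 0.19 (adjusted p = 1.29e-07). The genes named here from that list were chosen after their values were seen, and the part of protein length in their changes was not tested. The gene for mTOR itself had 0.06 ± 0.36 (adjusted p = 0.921).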

How the data were processed

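Reads from the 3′ ends of polyadenylated RNA were sequenced from 18 fractions (2 genotypes, 3 fractions, 3 gradients each). The authors trimmed reads with Cutadapt 1.14, aligned them to mm10 with STAR 2.5.3a, kept unique alignments and deposited strand-specific featureCounts 1.5.3 counts per gene of GENCODE M14 without ribosomal RNA genes. These counts were used as deposited, without the 92 spike-in entries, which held at most 0.00215% of a library.

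Genes with 3 or more CPM in at least 3 libraries were fitted with limma-voom 3.58.1 on TMM factors (edgeR 4.0.16, R 4.3.3), as means of 6 groups, with Benjamini-Hochberg adjustment over 12851 genes. The code was tested on simulated data. Other scalings, filters, tools (edgeR, DESeq2 1.42.0), a replicate block and each left-out gradient were tried. For ratios of fractions and the translation level, the block was the gradient within a genotype. For KO against WT in a fraction it was the replicate number, which pairs WT and KO samples not known to belong together. Library totals of 1151649 to 4984833 counts set the precision. At the smallest total, 3 counts are 2.6 CPM, a limit that covers counting error only. P-values measure the spread between these libraries, which may be technical.

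The study's methods state that all 3 fractions were taken from each sample. Fractions of a genotype with the same number were taken as 1 sample, which the labels do not state in words, and their deviations correlated at 0.032 to 0.135 over 18 pairs, against -0.14 to 0.076 for different numbers. Across genotypes only the number is shared.

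The members and lists were chosen with earlier results of these data known. Named were a fixed set of main factors and, for each comparison, up to 5 higher and 5 lower changed members with the largest changes and a mean of 50 or more counts, and members changed over 2-fold in translation level or in 2 or more fractions. Others are counted by role. Positions, protein lengths and transcript ends came from GENCODE M21 on GRCm38, the assembly of mm10, and miRNA sequences from RefSeq. The searches for seed matches and pyrimidine runs, the check of shared 3′ ends (50-base windows within the last 400 bases) and counts by role in other settings were added after the data were seen.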

Additional observations from a re-analysis of the deposited data

Results flagged for a closer look

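The ratio of high polysome to monosome differed between Dgcr8 KO and WT cells by more than 2-fold, in the limma test of the difference itself, for 22 members. Values are the KO log2 ratio minus the WT log2 ratio. Of the TOP list, Eef1a1 (1.62), Eef1b2 (1.79), Eef1d (1.23), Eef1g (1.75), Eef2 (1.68), Eif3f (1.32), Eif3h (1.31), Eif4b (1.25) and Pabpc1 (1.44) were higher in KO cells. The other higher members were Eif3l (1.36), Eif4g1 (1.42) and Pabpc4 (1.01). Lower in KO cells were Eef1e1 (-1.12), Eif1 (-1.10), Eif1a (-1.27), Eif1ad (-1.48), Eif1ax (-1.98), Eif2s2 (-1.03), Eif4g2 (-1.43), Eif5a (-1.78), Eif5a2 (-2.77) and Eif6 (-1.22). The fitted value of Eif5a2 rests on 0 to 18 counts per library in the 2 fractions. The share of tested genes past the same limits was 15.1%, against 22 of 60 members. No explanation of these differences was tested.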

How the results depend on the processing

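Of 183 called values of named members, 143 kept their call under every alternative run, 40 lost it under at least 1, and none changed sign. Total counts and the fit without a filter each lost 14 calls, and leaving out single gradients lost 8 to 20. The count of changed members stayed within 1.5 times in every comparison except with a 2-fold limit added: 22 members then changed in translation level, 21 in monosomes, 8 in low polysomes, 16 in high polysomes, and 24 between fractions within WT and 24 within KO cells. Leaving out single gradients gave 31 to 35, 32 to 38, 28 to 35, 30 to 39, 37 to 47 and 41 to 48 in the same order. The fit with a replicate block gave 36, 42, 37, 40, 46 and 50, where the values 42, 37 and 40 paired WT and KO samples by replicate number alone. It lost none of the 183 calls and added 7 among 75 values of named members that were not called before, and over all alternatives 21 of the 75 were called at least once. In 10 members 23.9% or more of the 3′ end is shared with or overlaps another gene. They are Eef1a1, Eef1d, Eif3e, Eif3h, Eif3j2, Eif3m, Eif4a3, Eif4ebp3, Eif5b and Pabpc4. Without them, 31, 34, 30, 32, 38 and 40 of 50 changed. Eef1b2, Eif3i, Eif5 and Eif6, with 0.855 to 3.99% shared, were kept. Total counts moved the median of all genes by -0.33 for the translation level, 0.10 in monosomes, -0.22 in high polysomes and -0.25 for the KO ratio, and the split of calls from 20 up and 16 down to 13 and 19, from 7 and 30 to 3 and 38 in high polysomes, and from 27 and 20 to 21 and 24 for the KO ratio. DESeq2 gave no adjusted p for the translation level of Eif5a2. Depth limits the rarest members, such as Eif2s3y with 1 to 11 counts per library, and totals of RNA per fraction were not measured.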
